A study of Sus scrofa with 2 samples.

Results

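Transcripts of red blood cells and their precursors were followed in the hippocampus of Rongchang piglets, as 8 genes in a table of 25322 Ensembl pig gene IDs. The genes were HBB, HBM, ALAS2, AHSP, SLC4A1, GATA1 and KLF1, found through a table that pairs IDs with symbols, and the ID ENSSSCG00000007978, which none of the tables used here pairs with a symbol and which is therefore called by its ID. They were picked with the difference between these same samples known, so their differences are a description and carry no test. RNA of whole hippocampus was sequenced in 1 control sample and 1 sample labelled iron dextran, an iron and sugar polymer complex injected into piglets against iron deficiency. Both samples came from piglets of this breed, with the genotype given as "wide type". The sources used here give no dose, age, sex or number of animals, and each sample description lists 2 names that have 1 column of values between them. The design asks how hippocampal transcripts differ after iron dextran. With 1 sample per group there is no replicate check on any difference.

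Haemoglobin, the oxygen carrier of red blood cells, is built from alpha-type and beta-type globin chains, each holding a haem group with an iron atom. Red cell precursors make haem with their own form of the first enzyme of the pathway, ALAS2, and switch on globin genes through the transcription factors GATA1 and KLF1. Maturing red cells lose their nucleus, and reticulocytes, the youngest cells in circulation, still carry globin messenger RNA. Translation of ALAS2 messenger RNA depends on iron, through an element that binds iron regulatory proteins. RNA of brain tissue can hold globin transcripts from blood in its vessels, and globin transcripts have also been described in neurons and glia. In bulk tissue, more cells of a type and more RNA per cell cannot be told apart.

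The globins HBB and HBM, ALAS2 and ENSSSCG00000007978 were higher in the iron dextran sample, while the transcription factors GATA1 and KLF1 and the anion exchanger SLC4A1 were near or at 0 in both samples. Of the 8 genes, 7 had a row in the table, 6 were above 0 in at least 1 sample, and 4 had a mean FPKM (a level per length: the fragments counted for a gene, divided by transcript length and by the mapped fragments of the library) of at least 1. These 4 were above 1 FPKM in each sample, so none passed this minimum through the higher sample alone. All 4 passed 1.5-fold upward in iron dextran on the scale of log2(FPKM + 1), which understates the change of low genes. Across the 12557 genes that reached this mean, 2.47% were higher by that much and 1.47% lower. The members were chosen on this contrast, so nothing is read from their count against that background.

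HBB (ENSSSCG00000014725), the adult beta chain of haemoglobin, had 183 FPKM in the control sample and 506 in the iron dextran sample. Its rank among all IDs went from 531 in control to 170 in iron dextran, and the ratio was 2.76. ENSSSCG00000007978 was the most abundant of the 8, with 359 FPKM in the control sample and 872 in the iron dextran sample. It ranked 268 in control and 87 in iron dextran, and its ratio was 2.43. Both IDs were thus abundant in control too, and both were more than 2-fold higher in the other sample. Their log2(FPKM + 1) differences were 1.46 and 1.28.

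HBM (ENSSSCG00000007977), the mu chain, an alpha-type globin of erythroid cells, had a far lower level, with 2.89 FPKM in the control sample and 6.80 in the iron dextran sample. Its ratio was 2.35 and its log2(FPKM + 1) difference 1.003. ALAS2 (ENSSSCG00000012347), 5-aminolevulinate synthase of erythroid cells, had 3.29 FPKM in the control sample and 5.78 in the iron dextran sample. Its ratio of 1.76 was the smallest of the 4, and its log2(FPKM + 1) difference was 0.66. By the stricter rule of 2-fold on the same scale, HBB, ENSSSCG00000007978 and HBM were called higher and ALAS2 was not; the background at 2-fold was 0.741%.

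The remaining genes were at or near 0. SLC4A1 (ENSSSCG00000017358), the anion exchanger known as band 3 of the red cell membrane, was listed at 0 in control and had 0.0306 FPKM in iron dextran. It ranked 16672 there, near the end of the 16865 IDs above 0. KLF1 (ENSSSCG00000013730), the transcription factor that activates the adult beta-globin gene, had 0.0468 FPKM in control, rank 16350 of 16727, and was listed at 0 in iron dextran. GATA1 (ENSSSCG00000027237), the master transcription factor of the erythroid line, was listed at 0 in both samples. For AHSP, the chaperone that binds free alpha-globin chains, the ID paired with the symbol (ENSSSCG00000037878) had no row, so it has no value. A listed 0 may stand for an estimate that failed, because RPS21 and COX10, needed in every cell, were at 0 in both samples as well, and the number of sequenced fragments is unknown.

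**Figure D1:**
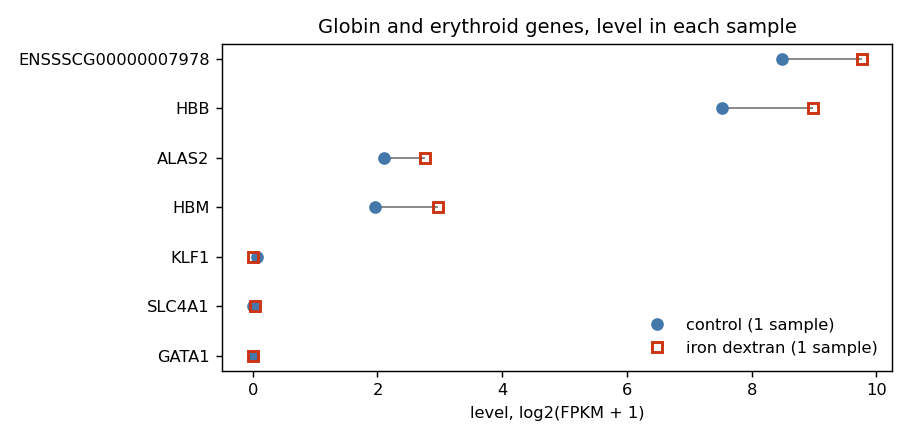
Level of each gene with a row, as log2(FPKM + 1) on the horizontal axis, in the control sample (filled circle) and the iron dextran sample (open square), 1 sample each. ENSSSCG00000007978, HBB, ALAS2 and HBM lie further right in iron dextran, and KLF1, SLC4A1 and GATA1 lie at or near 0 in both.

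Taken as a share of all FPKM, the 7 genes with a row made up 0.0593% in the control sample and 0.164% in the iron dextran sample, nearly all of it from HBB and ENSSSCG00000007978. The column totals differ, at 924070 and 850165 FPKM. With both columns scaled to the same total, the ratios of iron dextran to control were 3.004 for HBB, 2.64 for ENSSSCG00000007978, 2.55 for HBM and 1.91 for ALAS2. That scaling moved the median log2 difference over all genes from -0.0046 to 0.10 and the split of called genes from 310 higher and 185 lower (62.6% higher) to 442 and 130 (77.3% higher). The 4 genes stayed at least 1.5-fold higher with it.

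The difference was also placed among genes of like abundance. At a mean FPKM of at least 100 there were 979 genes, of which 0.511% (5 genes) passed 1.5-fold upward in iron dextran. HBB and ENSSSCG00000007978 were the third and the fourth in order of difference. The genes ahead of them, ENSSSCG00000018064 and ENSSSCG00000018068, were listed at 0 in control, with 9341 and 7240 FPKM in iron dextran, and were named after their values were seen. Both count among the 5 genes, and their listed 0 in control may stand for an estimate that failed. The fifth, ENSSSCG00000029294, had 91.6 and 173 FPKM. After it came PENK, the enkephalin precursor, at a ratio of 1.35. At a mean FPKM from 1 to below 10, a range that holds HBM and ALAS2, 3.93% of 6366 genes were at least 1.5-fold higher. HBM was at place 70 and ALAS2 at place 188 in order of difference there. Low genes thus passed the same fold more often than abundant ones.

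**Figure D2:**
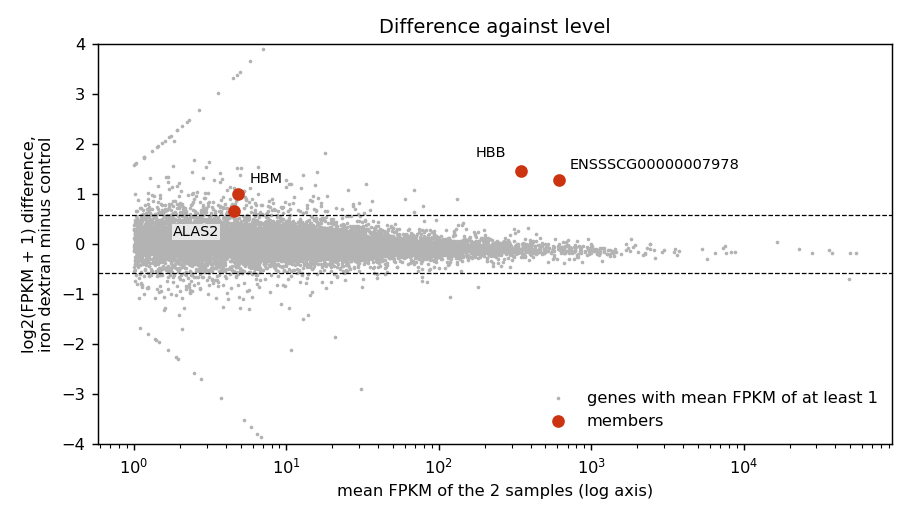
Iron dextran minus control difference of log2(FPKM + 1) on the vertical axis, against mean FPKM of the 2 samples (horizontal log axis) for genes whose mean was at least 1 (grey) and the 4 members among them (red); dashed lines mark 1.5-fold, and 22 genes lie beyond the vertical axis. HBB (1.46) and ENSSSCG00000007978 (1.28) lie above a cloud that narrows with abundance, and HBM (1.003) and ALAS2 (0.66) lie at the upper side of a wider one.

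The members did not all keep the same proportions to each other. Within control, the level of ENSSSCG00000007978 was 1.96 times that of HBB, and within iron dextran it was 1.72 times. Its ratio to HBM was 124 in control and 128 in iron dextran. HBB was 63.3 times HBM in control and 74.4 times in iron dextran. From control to iron dextran, these 3 ratios changed by factors of 0.881, 1.04 and 1.18. Against ALAS2, HBB went from 55.7 times in control to 87.6 times in iron dextran, a change of 1.57-fold. ENSSSCG00000007978 went from 109 to 151 times the level of ALAS2, and HBM from 0.881 to 1.18 times. The 3 ratios against ALAS2 are not separate observations, because each holds the same ALAS2 ratio of iron dextran to control, 1.76. HBM and ALAS2 were low in both samples, and with 1 sample per group none of these ratios has an error. The ratios between members do not depend on how a column is scaled. How reads that match several genes were assigned is a step the sources used here do not describe, and its part in these ratios was not tested.

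**Figure D3:**
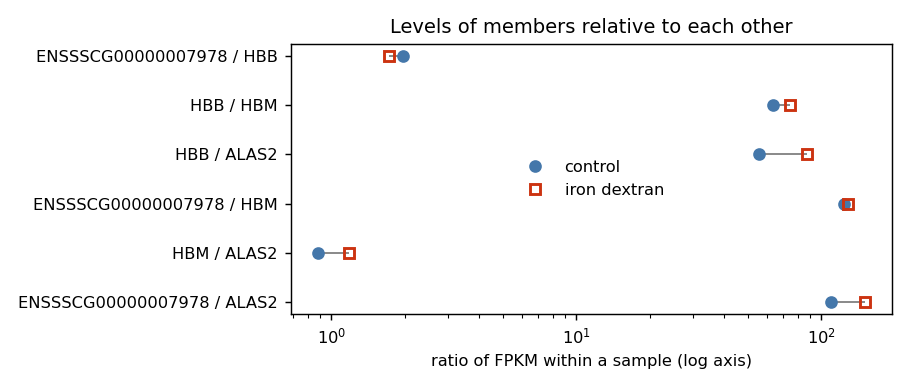
Ratio of FPKM between pairs of members within the control sample (filled circle) and within the iron dextran sample (open square), on a log axis. Pairs among HBB, HBM and ENSSSCG00000007978 differ little between samples, and each pair with ALAS2 as denominator lies further right in iron dextran.

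Other globins were at low levels. NGB (ENSSSCG00000002399), neuroglobin, the globin of nerve cells, had 5.52 FPKM in the control sample and 3.77 in the iron dextran sample, a log2(FPKM + 1) difference of -0.45 that did not reach 1.5-fold on that scale. HBZ (ENSSSCG00000007975), the embryonic zeta chain, was listed at 0 in control and had 0.106 FPKM in iron dextran. HBM and HBZ are next to each other in the RefSeq annotation of Sscrofa11.1, which is another build than that of the values. The other 11 symbols of the list of globins, among them HBA1, HBA2, HBE1, MB and CYGB, had no row under that symbol. HBB and HBM were thus the globins with a symbol that were past 1.5-fold.

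Haem synthesis genes other than ALAS2 were near the same level in both samples. Of 12 measured genes of the list, 4 were above 0 and 8 below on the difference scale, with a median of -0.02. ALAS2 was at least 1.5-fold higher and none was lower by that much. Without ALAS2 the median of the other 11 was -0.02 as well. ALAS1, the form of the first enzyme found in all tissues, had 37.03 FPKM in the control sample and 36.4 in the iron dextran sample, about an order of magnitude above ALAS2. UROD, which makes coproporphyrinogen, had 56.6 and 55.8 FPKM, and FECH, which inserts iron into the ring, had 19.93 and 19.94. FLVCR1, a transporter first described as a haem exporter, had 4.82 and 6.08 FPKM.

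Genes of the red cell membrane did not pass the fold. The 4 measured members had a median log2 difference of -0.05, with DMTN (dematin, which bundles actin) at 88.9 FPKM in the control sample and 85.0 in the iron dextran sample and ADD2 (beta adducin) at 9.24 and 8.68. SPTB (beta spectrin) had 6.59 and 6.37 FPKM and ANK1 (ankyrin) 3.14 and 3.49. Neurons also express these 4. More restricted to red cells is RHAG, a part of the Rh complex, which was listed at 0 in both samples. Another 6 genes, SLC4A1 included, had a mean FPKM below 1, and all 6 were numerically higher in iron dextran, also with the same column total. Among them ICAM4, a red cell adhesion molecule, had 0.0955 and 0.354 FPKM, and EPB42, a protein that links band 3 to the membrane skeleton, had 0.0308 and 0.0870. Of all 4895 genes above 0 with a mean below 1, 52.1% were numerically higher in iron dextran as deposited and 63.4% with the same column total. These values are too low to carry a fold.

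Erythroid transcription and signalling genes did not pass the fold either. Their 5 measured members had a median of -0.05, with 2 above 0, 3 below and none past 1.5-fold. The highest were LDB1, at 31.2 FPKM in the control sample and 29.3 in the iron dextran sample, BCL11A, a repressor of fetal globin genes, at 24.7 and 23.8, and LMO2 at 20.7 and 19.2. LDB1 and BCL11A also act in neurons. JAK2, the kinase of the erythropoietin receptor, had 1.07 and 1.40 FPKM, and STAT5A had 0.915 and 1.09. The 4 genes above 0 with a mean below 1 were numerically lower in iron dextran, also with the same column total: KLF1, NFE2 (0.106 and 0.0498 FPKM), MYB (0.190 and 0.146) and EPOR, the erythropoietin receptor (1.19 and 0.578). Of all 4895 genes above 0 with a mean below 1, 2346 were numerically lower in iron dextran as deposited. No direction is read from such low values. GATA1, GFI1B and LYL1 were listed at 0 in both samples.

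Enzymes and maturation factors of red cells had a median of 0.01 over 10 measured genes, with 5 above and 5 below 0 and none past 1.5-fold. PRDX2, a peroxiredoxin abundant in red cells and neurons, had 704 FPKM in the control sample and 624 in the iron dextran sample. BNIP3L, the receptor by which reticulocytes clear mitochondria, had 67.4 and 71.3 FPKM, and CAT, catalase, had 62.1 and 61.6. CA2, a carbonic anhydrase of red cells and oligodendrocytes, had 27.5 and 34.9. TFRC, the transferrin receptor that red cell precursors carry in large numbers, had 7.98 and 5.43 FPKM, a log2(FPKM + 1) difference of -0.48.

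Markers of other blood cells and of plasma were set beside the globins. Of the 13 listed platelet markers, 8 had a row and 1 a mean FPKM of at least 1, GP1BB, part of the platelet receptor for von Willebrand factor, which was listed at 0 in control and had 14.0 FPKM in iron dextran. Of 5 platelet genes above 0 with a mean below 1, 2 were numerically higher and 3 lower, with ITGB3 at 0.325 and 0.320 FPKM, and GP6 and TREML1 were listed at 0 in both samples. The summed FPKM of the platelet list was 1.46 in control and 15.6 in iron dextran, nearly all of the latter from GP1BB. Its listed 0 in control may stand for an estimate that failed. Of the 12 neutrophil markers, 8 had a row, with a summed FPKM of 2.99 and 3.56, most of it from S100A8 (2.42 and 2.68), and MMP8 and CEBPE were listed at 0 in both. Of the 20 lymphocyte and monocyte markers, 14 had a row, with a summed FPKM of 17.6 and 18.9. The 4 measured ones, of which 3 were above 0, had a median of 0.10. PTPRC, the pan-leukocyte antigen that microglia carry too, had 1.09 and 1.95 FPKM, and CD14 had 11.0 and 11.7. Of the plasma protein genes, 8 of 11 had a row, with a summed FPKM of 323 and 306, most of it from APOA1 (299 and 278). ALB, albumin, had 2.94 and 3.18 FPKM, and APOA2 and FGG were listed at 0 in both. Apart from GP1BB, none of the measured genes of these 4 lists reached 1.5-fold as log2(FPKM + 1). On the plain ratio of FPKM PTPRC was, at 1.79, next to 1.76 for ALAS2, whose level was higher. The part of blood left in the tissue in the globin difference was not tested.

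Vessel and tissue markers were also compared. The 7 endothelial markers with a row, of 12 listed, had a median of -0.08, with 2 above 0 and 5 below. Their summed FPKM was 41.2 in control and 39.1 in iron dextran. PECAM1, an adhesion molecule of the vessel wall, had 16.9 and 14.9 FPKM, TIE1 6.504 and 6.38, and KDR, a receptor of vascular growth factor, 5.64 and 5.28. On the log2(FPKM + 1) scale no endothelial marker reached 1.5-fold. TEK, a receptor of angiopoietins, had 1.81 and 1.203 FPKM, a plain ratio of 0.664. The 2 that were numerically higher in iron dextran were ERG (3.53 and 4.45 FPKM) and FLT1 (3.48 and 3.85). The labelled tissue was checked on neuronal and hippocampal markers, of which 10 of 14 had a row and 9 were measured, with a median of 0.01. SNAP25, of the synaptic release machinery, had 1032 and 952 FPKM, SLC17A7, the vesicular glutamate transporter, 658 and 611, and SYT1 326 and 327. C1QL2, of dentate granule cells, had 10.9 and 10.3. PROX1, of the same list, was low in both samples, at 0.761 and 0.858 FPKM, and its mean was below 1. CAMK2A was the member past 1.5-fold, at 1.995 and 3.93 FPKM.

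**Figure D4:**
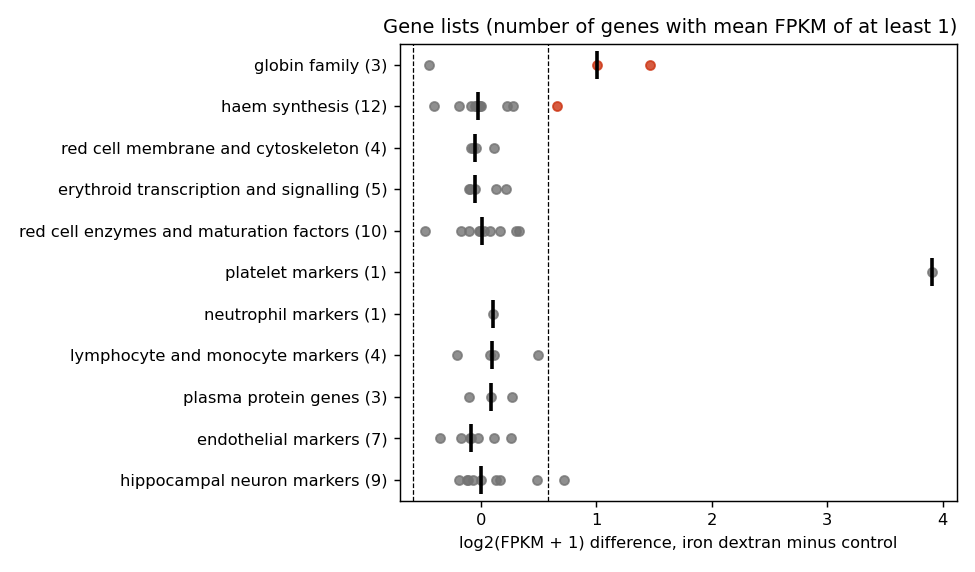
Iron dextran minus control difference of log2(FPKM + 1) for each gene of 11 lists whose mean FPKM was at least 1 (points; red for the members, black bars for list medians, dashed lines for 1.5-fold). HBB, HBM and ALAS2 lie right of the dashed line, as do GP1BB and CAMK2A, and the other genes lie between the lines.

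Over all 12557 genes the median difference was -0.0046 and the quartiles were -0.12 and 0.14. The medians of the lists of haem synthesis, red cell membrane, erythroid transcription, red cell enzymes, endothelial and neuronal genes, from -0.08 to 0.01, lay between these quartiles. So did those of lymphocyte and monocyte markers (0.10), plasma protein genes (0.09) and neutrophil markers (0.11, from 1 gene). On the ratio of iron dextran to control FPKM, over these 2 samples, the genes with a symbol nearest to HBB were PTGFRN (0.587 and 1.62 FPKM), CDK8 (2.30 and 6.28), IFIT2 (1.69 and 4.47) and CDIN1 (1.40 and 3.68), within 0.068 log2 units of its ratio. Likeness over 2 samples is a single number per gene and says nothing beyond that.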

How the data were processed

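FPKM values deposited by the authors, 1 column per sample, were used as they stand. The submitters' processing notes name cutadapt 1.2.1 and TopHat, with Sscrofa10.2 and susScr3 as builds; the FPKM program, annotation and strand use were not given in the sources used here. Columns were matched to samples by the letter in the sample titles. Symbols matched 11804 of 25322 IDs. FPKM hides the absolute depth. On 587 genes with a mean below 0.1 FPKM, 128 ratios lay within 0.02 log2 units of a common value; read as whole fragments, this is a relative depth of iron dextran to control of 1.06. No interval is given.

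Differences of log2(FPKM + 1) were computed with pandas 2.3.3, by code checked on simulated data; no statistical test was made. List genes entered with a mean of 1 FPKM or more. Genes named are the 8 members, globins, list genes past 1.5-fold, up to 4 further genes per list by level, and the 4 nearest to HBB by ratio; others were named after their values were seen, and some list genes are not reported here. Members and lists were chosen with earlier results of these data known. Alternatives were pseudocounts, filters, folds and column scalings; leaving out genes listed at 0 was added after seeing the data.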

Additional observations from a re-analysis of the deposited data

How the results depend on the processing

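No paired analysis was possible because each group has 1 sample. HBB, HBM, ALAS2 and ENSSSCG00000007978 kept their direction and stayed at least 1.5-fold higher under both other pseudocounts and all 3 column scalings; 3 of them passed 2-fold. At a pseudocount of 0.01, SLC4A1 (2.02) and KLF1 (-2.51) passed 1.5-fold, each with 1 sample listed at 0. The counts of genes at least 1.5-fold higher and lower, 310 and 185, became 558 and 332 at a pseudocount of 0.1, 599 and 357 at 0.01, 434 and 282 without a filter, 113 and 71 with a minimum mean of 5 FPKM, and 93 and 53 at 2-fold. Without genes listed at 0 they were 272 and 161. With the same column total, medians turned above 0 for haem synthesis (0.10), red cell membrane (0.0576), erythroid transcription (0.0639), endothelial markers (0.0201) and all genes (0.10). The globin median was 1.003 over 3 measured genes, of which 2, HBB and HBM, are members, and 0.57 without a filter. Leaving out these 2, only NGB remains among the measured globins, at -0.45. Without a filter, the medians of red cell membrane (0.0475), platelet (-0.0028) and plasma protein genes (-0.00028) changed sign. With a minimum mean of 5 FPKM, those of red cell enzymes (-0.0070) and neuronal markers (-0.0292) did. The lists that rest on 1 gene each, platelet and neutrophil markers, have no spread. The cause of these shifts was not tested, and with 1 sample per group and unknown depth none of the differences has an error.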
